A study of Mus musculus with 60 samples.

Results

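The 10 genes described here encode heavy chains of the major histocompatibility complex (MHC) class I family: H2-K1, H2-D1, H2-Q4, H2-Q6, H2-Q7, H2-Q10, H2-T22, H2-T23, H2-T24 and H2-T27. They were taken by symbol from a table of 41079 genes, and all 10 were in it. RNA was sequenced from 60 libraries of 12 mice. Of the mice, 6 were outbred CD1 and 6 were inbred C57, with 3 males and 3 females in both strains. Every animal gave 1 library of parotid, submandibular and sublingual gland, pancreas and liver, so each tissue held 6 CD1 and 6 C57 libraries. The labels name no treatment, age, genotype or substrain, and all groups share bulk tissue and poly(A) selection. P-values of comparisons within 1 tissue measure the spread between these animals. Those of comparisons across tissues measure the spread left within animals. A name such as CD1 male 1 stands for 1 animal, and CD1 female 1 or C57 male 1 for others.

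Class I molecules carry short peptides from inside the cell to its surface, where T cells and natural killer cells read them. The heavy chain needs beta-2-microglobulin (B2m) and a peptide, which the proteasome makes and the TAP transporter brings into the endoplasmic reticulum. H2-K1 and H2-D1 encode classical heavy chains, which differ widely between mouse haplotypes. The Q and T genes are nonclassical: H2-Q6 and H2-Q7 encode Qa-2, H2-Q10 encodes a secreted molecule known from liver, H2-T22 encodes a ligand of some gamma delta T cells, and H2-T23 encodes Qa-1, which is read by CD94/NKG2 receptors. Interferons and NF-kappaB are known to switch many of these genes on, through short elements upstream of the start site and through the coactivator Nlrc5.

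All 10 genes lie on chromosome 17. In GRCm39, the build of the counts, the exon listed for H2-K1 runs from 34214986 to 34215477 on the minus strand, that of H2-D1 from 35482070 to 35482162 on the plus strand and that of H2-T27 from 36366708 to 36367038 on the minus strand. The other 7 listed exons start between 35598593 (H2-Q4) and 36348023 (H2-T22). RefSeq promoter windows of GRCm38.p6 were found for 8 of the 10 genes, all except H2-T24 and H2-T27. The windows of 7 of these 8 held the interferon element TTTCACTT once, and that of H2-T23 did not hold these letters. In H2-K1, H2-D1 and H2-Q6 a palindromic NF-kappaB element, the first run of capitals in their stretches, stood upstream of it. Stretches of 38 bases are shown because they put both elements side by side in the genes compared here. Capitals mark the elements, which do not overlap.
H2-K1: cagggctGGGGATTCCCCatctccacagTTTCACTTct
H2-D1: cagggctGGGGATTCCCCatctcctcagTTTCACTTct
H2-Q4: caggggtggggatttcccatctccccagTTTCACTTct
H2-Q6: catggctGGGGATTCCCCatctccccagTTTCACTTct
H2-Q7: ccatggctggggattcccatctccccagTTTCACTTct
H2-Q10: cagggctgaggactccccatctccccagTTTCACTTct
H2-T22: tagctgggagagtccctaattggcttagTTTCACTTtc
On chromosome 17 of GRCm38.p6, the H2-K1 stretch covers 34000428 to 34000465 on the minus strand, the H2-D1 stretch 35262916 to 35262953 on the plus strand and the H2-Q10 stretch 35469906 to 35469943 on the plus strand. Searched on both strands, TTTCACTT was in 1.6% of all 32851 windows of 300 bases and the palindromic NF-kappaB element in 0.0304%. A match describes the letters of the reference strain only, and CD1 alleles were not read.

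Totals per library ran from 29.9 to 66.6 M counts (M is 10 to the power of 6), with a median of 40.5 M, and every level below is in CPM, counts per M counts of a total scaled by the TMM method over all 60 libraries. The scaled totals ran from 13.1 to 88.1 M, with medians of 16.1 M in pancreas, 40.01 M in liver, 44.2 M in submandibular gland, 45.4 M in parotid and 68.9 M in sublingual gland, so levels set across tissues carry this scaling. Some libraries stood apart from their label. Cpa1, which encodes a pancreatic enzyme, was at 33.5 CPM in the pancreas library of CD1 female 2 and at 9538 CPM in that of CD1 female 3, against at least 71723 CPM in the other 10. The 17 lymphocyte and myeloid markers summed to 237 CPM and 1401 CPM in these, against at most 99.2 CPM in the other pancreas libraries, and their scaled totals were 71.7 and 67.5 M against 13.1 to 18.2 M. Parotid libraries also varied in this sum, from 57.4 to 1622 CPM in CD1 (median 652 CPM) and from 58.5 to 896 CPM in C57 (median 126 CPM), and no gene of the 17 was at 0 in all libraries of a group. The sublingual library of C57 male 2 held Egf, a submandibular product, at 11269 CPM against at most 368 CPM in the other 11, and the 5 strain calls in sublingual gland given below held without it. In bulk tissue, fewer cells of a type and less RNA per cell cannot be told apart.

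The strain comparison set outbred against inbred mice in each tissue and gave calls in both directions among the class I genes. A call is an adjusted p under 0.05 over all genes tested in that tissue, from the quasi-likelihood test of edgeR and the Benjamini-Hochberg method. In parotid 2 of 10 genes (H2-T24 and H2-T27) were higher in CD1 and 1 (H2-K1) was lower, where 2.02% of all genes were called, 0.831% higher and 1.19% lower. In submandibular gland 3 were higher and 1 lower (background 4.75%, 2.25% higher and 2.51% lower). In sublingual gland 3 were higher and 2 lower (14.8%, 7.49% higher and 7.36% lower). In pancreas 2 of 9 were higher and none lower (3.74%, 1.78% higher and 1.96% lower), with H2-Q6 too low to test. Without the pancreas library of CD1 female 1 the count there was 7. That fit kept only females 2 and 3, which stood apart in Cpa1, as CD1 females. In liver 2 were higher and 3 lower (14.1%, 7.09% higher and 6.99% lower). Of the 49 gene and tissue pairs tested, 19 were called, 12 higher and 7 lower in CD1, and in 15 the 6 libraries of one strain lay beyond all 6 of the other. Over all genes that share was 3.1% in parotid, 2.77% in submandibular gland, 8.1% in sublingual gland, 5.26% in pancreas and 7.34% in liver. H2-T27 and H2-T24 were higher in CD1 in 5 of 5 tissues. H2-K1 was lower in 4 of 5, and H2-D1, H2-Q6, H2-T22 and H2-T23 passed in none.

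**Figure D1:**
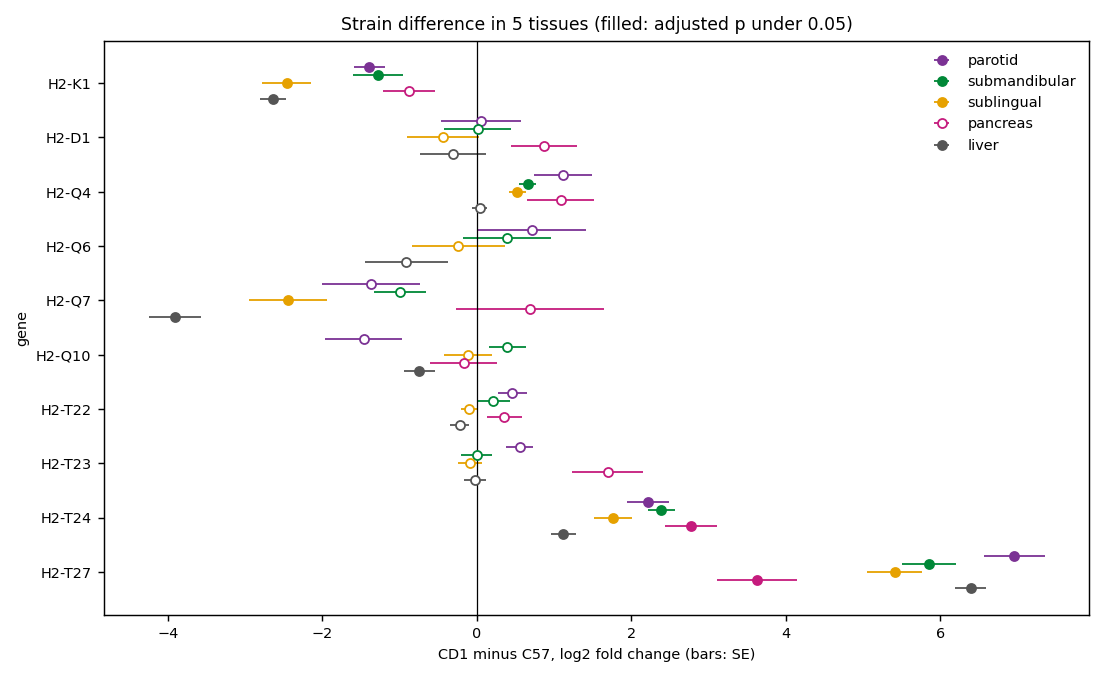
Strain difference of each gene (vertical axis) as log2 fold change of CD1 against C57 (horizontal axis, bars are SE) in 5 tissues of 6 libraries per strain, with filled points for adjusted p under 0.05. H2-T27 lies furthest to the right, between 3.63 and 6.96, and the filled points to the left of 0 belong to H2-K1, H2-Q7 and, in liver, H2-Q10.

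H2-K1, the classical K heavy chain, was lower in CD1. In liver it was at 104, 148 and 287 CPM (lowest, median and highest) in CD1 and at 891, 1062 and 1208 CPM in C57. The groups did not overlap, and the log2 fold change was -2.64 ± 0.17 (SE, 6 libraries per strain, edgeR adjusted p = 6.77e-07), or 6.22-fold lower. In sublingual gland CD1 libraries were at 26.5, 48.5 and 119 CPM and C57 libraries at 220, 330 and 393 CPM. Again no library overlapped, with a log2 fold change of -2.46 ± 0.32 (edgeR adjusted p = 4.21e-04). In parotid CD1 lay at 156, 177 and 243 CPM and C57 at 333, 491 and 663 CPM, which gave -1.39 ± 0.20 without overlap (edgeR adjusted p = 0.00550).

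In submandibular gland H2-K1 was at 19.3, 115 and 193 CPM in CD1 and at 171, 249 and 316 CPM in C57. The groups overlapped and the log2 fold change of -1.28 ± 0.32 was called at an edgeR adjusted p of 0.0382, but the call held in only 2 of the 12 fits that each left out 1 library. Leaving out a library gave log2 fold changes from -1.69 to -1.07 and adjusted p up to 0.0973, and with the replicate number as a block the edgeR adjusted p was 0.0684. In pancreas CD1 was at 30.2, 40.8 and 252 CPM and C57 at 114, 139 and 161 CPM, and the difference of -0.88 ± 0.34 was not called (edgeR adjusted p = 0.144). The CD1 libraries of females 2 and 3, which stood apart in Cpa1, held H2-K1 at 187 and 252 CPM, above every C57 library, and the other 4 lay at 30.2 to 43.1 CPM, below every C57 library. Without these 2 the log2 fold change was -1.85 (edgeR adjusted p = 1.77e-06).

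H2-T27, a nonclassical T gene, was far higher in CD1. In C57 it stayed between 0.0690 and 0.827 CPM in parotid, submandibular and sublingual gland and liver, on 3 to 39 counts a library. In liver CD1 reached 19.9, 36.4 and 63.5 CPM against 0.219, 0.393 and 0.827 CPM in C57, a log2 fold change of 6.39 ± 0.20 (edgeR adjusted p = 9.36e-10), or 84.0-fold. In parotid CD1 was at 18.9, 62.9 and 134 CPM and C57 at 0.361, 0.420 and 0.699 CPM. This was the largest difference among the 49 tests, 6.96 ± 0.39 (edgeR adjusted p = 8.02e-06).
In submandibular gland CD1 lay at 5.68, 27.9 and 91.9 CPM and C57 at 0.0690, 0.399 and 0.690 CPM (5.85 ± 0.35), and in sublingual gland at 6.84, 12.51 and 26.05 CPM and 0.113, 0.248 and 0.616 CPM (5.41 ± 0.35). In pancreas C57 was higher in CPM than elsewhere, at 1.04, 1.75 and 2.46 CPM. These levels rest on 18 to 36 counts a library and on the smaller scaled totals of pancreas. CD1 was at 4.74, 13.7 and 72.0 CPM there (3.63 ± 0.52, edgeR adjusted p = 0.00450). No CD1 library overlapped C57 in any tissue. Without the pancreas libraries of CD1 females 2 and 3 the pancreas value was 2.21 (edgeR adjusted p = 6.16e-05).

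H2-T24, another nonclassical T gene, was higher in CD1 in each tissue. In submandibular gland CD1 was at 13.8, 20.5 and 35.6 CPM and C57 at 2.76, 4.45 and 5.26 CPM, without overlap (log2 fold change 2.39 ± 0.17, edgeR adjusted p = 3.65e-06). In sublingual gland it was at 8.75, 12.6 and 22.99 CPM against 3.24, 3.52 and 7.75 CPM (1.76 ± 0.25). In liver it was at 6.07, 8.15 and 13.3 CPM against 3.22, 3.84 and 4.69 CPM (1.12 ± 0.17), the smallest of the 5 values.
In pancreas it was at 5.43, 7.83 and 37.6 CPM against 1.23, 1.93 and 2.14 CPM, and the log2 fold change was 2.77 ± 0.34, or 2.01 without CD1 females 2 and 3 (edgeR adjusted p = 7.35e-05). Parotid was the 1 tissue with overlap. There CD1 lay at 23.8, 28.6 and 41.2 CPM and C57 at 1.46, 5.93 and 24.4 CPM (2.21 ± 0.27, edgeR adjusted p = 0.00242). The C57 parotid libraries high in H2-T24 were males 3 (24.4 CPM), 1 (15.2 CPM) and 2 (8.89 CPM), whose marker sums of 549, 896 and 158 CPM were also above those of the C57 females. Their part in the level was not tested. CD1 female 1, with the lowest sum, held 27.1 CPM.

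H2-Q7, one of the Qa-2 genes, stayed at 3.85 CPM or less except in C57 liver and C57 parotid, where it reached 18.9 and 9.89 CPM. In liver CD1 was at 0.314, 0.512 and 0.837 CPM and C57 at 5.29, 5.73 and 18.9 CPM, without overlap (log2 fold change -3.91 ± 0.34, edgeR adjusted p = 8.81e-06). In sublingual gland it was at 0.0332, 0.0757 and 0.321 CPM in CD1 and at 0.442, 0.631 and 0.800 CPM in C57 (-2.45 ± 0.51, edgeR adjusted p = 0.00798). These sublingual values rest on 2 to 56 counts a library. H2-Q6, the neighbouring Qa-2 gene, was at 3.31 CPM or less in all 60 libraries and was called in none of 4 tissues, with log2 fold changes from -0.91 to 0.71. Reads of these copies are hard to keep apart: of the 100-base stretches in the H2-Q7 transcript, 11.7% occur in H2-Q6 too. Summed over H2-Q6, H2-Q7, H2-Q8 and H2-Q9, liver held 0.920, 2.93 and 4.80 CPM in CD1 and 13.7, 14.7 and 29.6 CPM in C57, so the groups did not overlap for the sum either.

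H2-Q10, the secreted molecule, was lower in CD1 liver. CD1 was at 1136, 1353 and 2664 CPM and C57 at 2303, 2694 and 3116 CPM. CD1 male 1, at 2664 CPM, lay within the C57 range and the other 5 below it. The log2 fold change was -0.74 ± 0.19 (edgeR adjusted p = 0.0236), and 3 of the 12 fits without 1 library did not pass, those without C57 female 2, C57 male 1 and CD1 male 3 (adjusted p up to 0.0614). A single fit to all 60 libraries, with no term for the animals, did not call it (edgeR adjusted p = 0.288). H2-Q4, a nonclassical Q gene, was higher in CD1 in sublingual gland, at 32.98, 37.6 and 53.7 CPM against 22.2, 26.5 and 31.8 CPM (0.52 ± 0.11, no overlap, edgeR adjusted p = 0.00887), and in submandibular gland, at 20.2, 41.2 and 78.1 CPM against 22.8, 23.7 and 29.3 CPM (0.66 ± 0.11, edgeR adjusted p = 0.00298). In the submandibular gland the 3 CD1 males (57.7 to 78.1 CPM) lay above all C57 libraries and the 3 CD1 females (20.2 to 24.7 CPM) within or below their range. Both calls of H2-Q4 were lost in a single fit to all 60 libraries, at adjusted p of 0.306 and 0.399.

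Class I counts depend on how reads of another allele are placed. GRCm39 was built from a C57 substrain. A CD1 allele that differs from it can lose reads or send them to another class I gene. So less RNA and fewer placed reads cannot be told apart in CD1. For genes higher in CD1, such as H2-T27 and H2-T24, more RNA and reads received from another gene cannot be told apart either. H2-K1 shared no 100-base stretch with the transcripts of other genes in GENCODE vM21, H2-T24 shared none, H2-D1 shared 4.64% and H2-Q4 13.9%. Of 50-base stretches H2-K1 shared 8.79% (6.94% with H2-D1), H2-T24 3.23%, H2-D1 14.3% and H2-Q4 39.2%. H2-T27 was not matched in GENCODE vM21. These are reference transcripts, and CD1 alleles were not read. The sum of the 10 genes in liver was 2313, 2687 and 3332 CPM in CD1 and 4377, 4687 and 5415 CPM in C57, and the sum of H2-K1 and H2-D1 was 196, 730 and 1330 CPM against 1552, 1733 and 1982 CPM. In parotid the 10 genes summed to 727, 1363 and 1935 CPM and 1091, 1274 and 1826 CPM, which overlapped widely.

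H2-D1, the classical D heavy chain, was called in no tissue, with log2 fold changes from -0.44 to 0.87, and of the 10 genes it varied most between CD1 animals. CD1 male 1 held 57.2 CPM in parotid, 81.7 in submandibular gland, 24.8 in sublingual gland, 77.1 in pancreas and 55.3 in liver. It was the lowest of the 12 libraries in each tissue. The next CD1 library was at 424, 123, 190, 145 and 481 CPM in the same order. CD1 female 3 was at 998, 565, 408, 1146 and 1043 CPM, highest of the CD1 libraries in pancreas and liver, and CD1 male 2 at 1043, 661, 421, 199 and 693 CPM. In C57 the lowest and highest were 552 and 779 CPM in parotid and 180.4 and 198 CPM in pancreas.
The spread was set as the SD over 6 animals of each animal's mean log2(CPM + 0.5) over 5 tissues, centred by tissue and strain. Sex was not centred, so a difference between males and females is part of the spread. For H2-D1 the spread was 1.33 in CD1 and 0.0852 in C57, a ratio of 15.6. Differences between animals made up 79.2% of its variance in CD1, and its deviations correlated between tissues with a mean r of 0.743 over 10 tissue pairs of 6 animals. Both values include CD1 male 1, whose mean deviation was -2.47, against -0.28 to 1.33 in the other CD1 animals. Neither was computed without that animal. Without CD1 male 1 the CD1 SD was 0.598 and the ratio 7.03, and without C57 female 3 the ratio was 24.1.

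**Figure D2:**
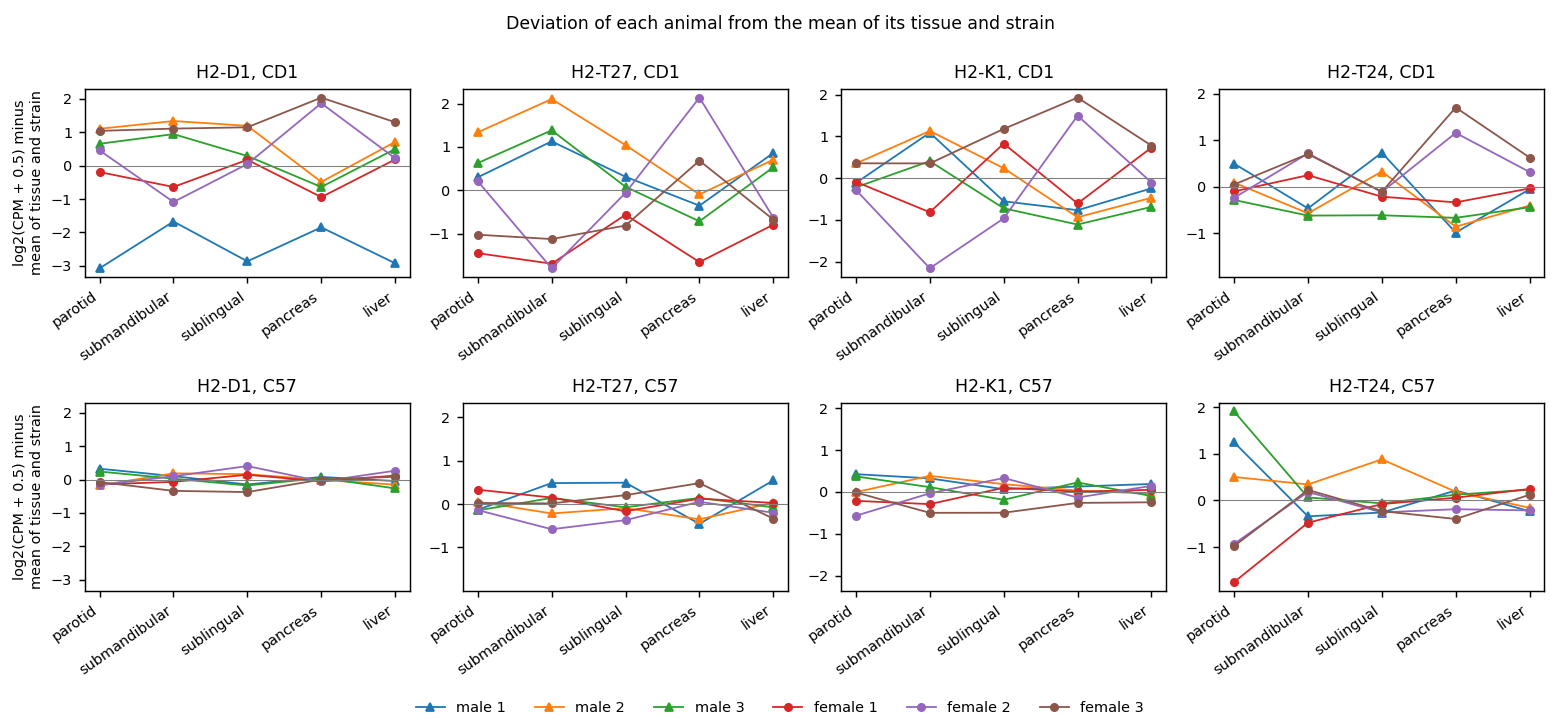
Deviation of each library from the mean of its tissue and strain in log2(CPM + 0.5) (vertical axis) over 5 tissues (horizontal axis), with 1 line per animal, for 4 genes in CD1 (top) and C57 (bottom). In H2-D1 the line of CD1 male 1 lies below the other 5 in every tissue, and the C57 lines stay near 0.

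Of the 10 genes, 7 had an SD in CD1 at least 2 times that in C57, where 31.1% of 16236 genes did, and the median ratio over these genes was 1.51. Without CD1 female 1 or CD1 female 3 the count was 4. The spread is a description without a test. H2-T27 came after H2-D1, with an SD of 0.806 against 0.158 and a ratio of 5.11. Outside pancreas its C57 levels were 0.0690 to 0.827 CPM, near the 0.5 CPM added before the log. This narrows the C57 SD, and its part in the ratio of H2-T27 was not tested. CD1 male 2 was its highest animal on average (1.02 above the mean on the log2 scale) and CD1 female 1 its lowest (-1.23). H2-K1 had a ratio of 2.69, which was 1.30 without CD1 female 3 and 4.05 without C57 female 3. H2-T22 was at 2.39, H2-Q4 at 2.31, H2-T23 at 2.14 and H2-Q6 at 2.09. Without CD1 female 1 the ratio of H2-Q4 was 0.725. Without the 3 libraries that stood apart in Cpa1 or Egf, H2-T23 and H2-Q6 fell below 2, to 1.78 and 1.77. In that setting H2-Q4 was at 2.01 and H2-D1 at 14.3, and H2-K1, H2-T22 and H2-T27 rose to 2.89, 2.66 and 5.86. Leaving out a C57 animal raised some ratios, to 3.99 for H2-Q4 and 4.50 for H2-Q6 without C57 male 1, and to 4.18 for H2-T22 and 3.81 for H2-T23 without C57 female 3. H2-Q7 (0.753), H2-Q10 (1.03) and H2-T24 (1.15) lay below the median ratio of all genes. In some genes the sexes lay apart within a strain, which enters these SDs. For H2-T24 in C57 the animal means were -0.40 to -0.25 in females and 0.13 to 0.45 in males. For H2-T27 in CD1 they were -1.23 to -0.03 in females and 0.38 to 1.02 in males.

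Levels also set the tissues apart, and per-library values show the order for each gene. H2-Q10 was a liver gene. Its liver libraries held 1136 to 3116 CPM, and the other tissues had medians of 30.6 CPM in pancreas, 13.7 in parotid, 10.7 in submandibular gland and 7.33 in sublingual gland. Liver exceeded pancreas by 6.22 ± 0.33 on the log2 scale (edgeR adjusted p = 4.76e-20 in the fit with animals as a block). A call between tissues needed an adjusted p under 0.05 and at least 2-fold, and 43.9% of all genes met it for this pair. Pancreas, parotid, submandibular and sublingual gland followed each other by less than 2-fold. As a percentage of the liver mean, H2-Q10 was at 0.144% to 2.87% in the 48 libraries outside liver, and Alb, which encodes the liver product albumin, was at 0.118% to 2.30%. Over these libraries the log2 levels of both correlated with r = 0.797, a description of libraries that share 12 animals. Both levels are divided by the same scaled total of a library, and its part in r and in the tissue order was not tested. H2-Q10 counts ran from 201 to 776 in pancreas and from 193 to 805 in sublingual gland. Parotid libraries of C57 female 2 and C57 male 3 departed from the relation of both levels, with H2-Q10 at 61.1 and 54.6 CPM beside Alb at 174 and 478 CPM. C57 female 3 had 12.9 CPM beside 522 CPM.

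**Figure D3:**
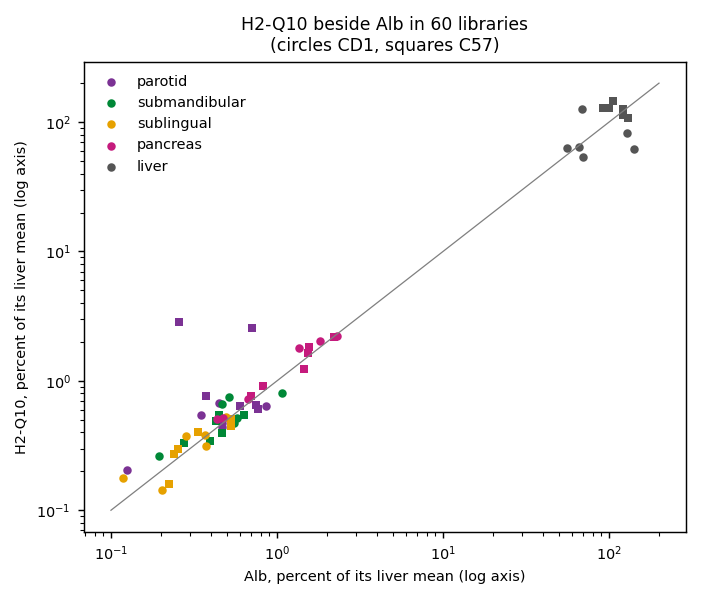
H2-Q10 (vertical log axis) against Alb (horizontal log axis), each as percent of its mean over the 12 liver libraries, in 60 libraries, with the line of equal percentages. Most libraries outside liver follow the line, and 2 C57 parotid libraries lie above it, the higher at 2.87% on the H2-Q10 axis.

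H2-K1 was highest in liver and parotid (medians of 589 and 288 CPM over 12 libraries), which did not differ by the tissue rule, and parotid was above submandibular gland by 1.02 ± 0.22 (edgeR adjusted p = 3.06e-04, background 21.6%). Submandibular gland, sublingual gland and pancreas were not called apart in that order. H2-D1 had medians of 632 CPM in liver and 628 in parotid, then 354 in submandibular gland, 289 in sublingual gland and 187 in pancreas, and no neighbours in the order were called apart. Scaled by gene length, the order of the genes in liver was not the same in both strains. In C57 the median was 1829 CPM per kilobase for H2-Q10, 488 for H2-K1, 395 for H2-D1, 169 for H2-T23, 35.04 for H2-T22, 28.3 for H2-Q4, 3.73 for H2-Q7, 1.18 for H2-T24, 0.476 for H2-Q6 and 0.275 for H2-T27. In CD1 it was 918 for H2-Q10, 314 for H2-D1, 175 for H2-T23, 68.1 for H2-K1, 30.6 for H2-Q4, 29.0 for H2-T22, 25.5 for H2-T27, 2.50 for H2-T24, 0.333 for H2-Q7 and 0.248 for H2-Q6.
H2-T23 was highest in liver (median 225 CPM) and sublingual gland (192 CPM), then parotid (120 CPM) and submandibular gland (85.1 CPM). It was lowest in pancreas (23.5 CPM), below submandibular gland by 1.12 ± 0.24 on the log2 scale (edgeR adjusted p = 1.21e-04, background 28.3%). H2-T22 had its highest median in liver (97.5 CPM) and its lowest in pancreas (36.3 CPM), with steps of less than 2-fold between neighbours. H2-Q4 was at a median of 100.3 CPM in parotid, 52.6 in liver, 32.4 in sublingual gland, 24.3 in submandibular gland and 21.9 in pancreas, and no neighbours were called apart. For H2-Q6 and H2-Q7 parotid and liver came first and were not called apart. Liver exceeded submandibular gland by 1.31 ± 0.42 for H2-Q6 (background 46.6%), and parotid exceeded submandibular gland by 1.61 ± 0.42 for H2-Q7. For H2-T24 and H2-T27, whose strains lie apart, no neighbouring tissues were called apart. Over all 10 pairs of tissues, 47 differences of the 10 genes were called, in a fit that kept the libraries that stood apart in Cpa1 or Egf. Parotid differed from pancreas in 8 genes (background 25.8%), from sublingual gland in 7 (27%), from submandibular gland in 4 (21.6%) and from liver in 2 (51.2%). Liver differed from pancreas in 7 (43.9%), from sublingual gland in 7 (49.1%) and from submandibular gland in 5 (46.6%). Pancreas differed from sublingual gland in 3 (31.6%) and from submandibular gland in 3 (28.3%), and the latter glands differed from each other in 1 (14.8%).

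**Figure D4:**
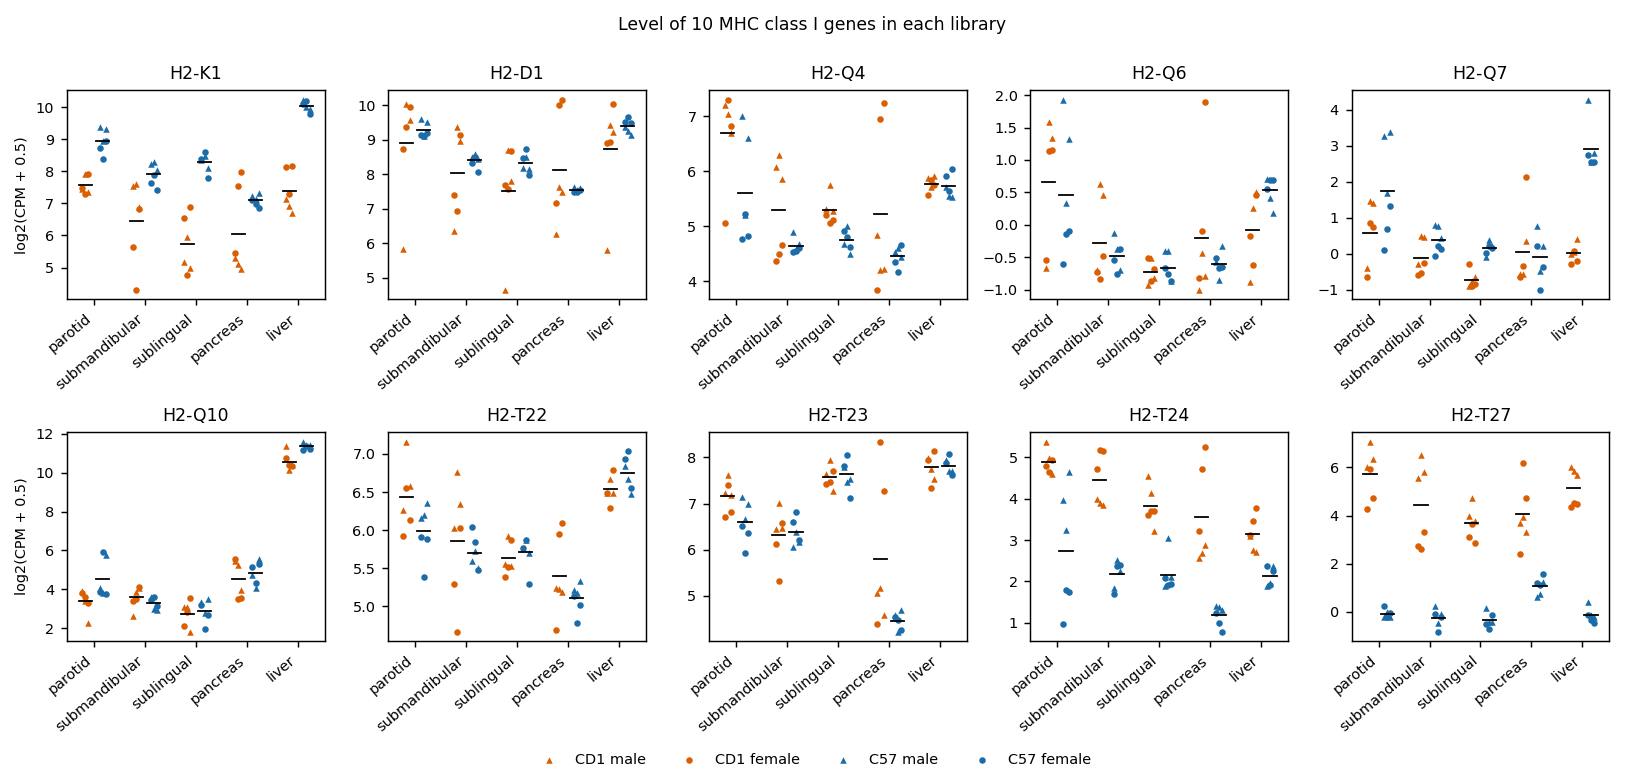
Level of each of the 10 genes in every library as log2(CPM + 0.5) (vertical axis) by tissue (horizontal axis), CD1 in orange and C57 in blue, triangles for males and circles for females, with black bars at the mean of 6 libraries. H2-T27 and H2-T24 sit higher in CD1, H2-K1 sits lower, H2-Q10 is high in liver, and the low H2-D1 point in each tissue is CD1 male 1.

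The size of the strain difference was tested across tissues in the 60-library fit with animals as a block, by an F test on 4 degrees of freedom. It differed between tissues for 3 of the 10 genes, H2-T27 (edgeR adjusted p = 3.38e-04), H2-Q7 (0.0246) and H2-K1 (0.0277), where 5.78% of 22062 genes did. H2-T27 had its smallest difference in pancreas, by 3.41 less on the log2 scale than in parotid, and H2-K1 and H2-Q7 had their largest in liver. This fit kept the pancreas libraries of CD1 females 2 and 3. In the fits of pancreas alone, leaving both out moved H2-K1 from -0.88 to -1.85 and H2-Q7 from 0.69 to -1.05. H2-T27 moved from 3.63 to 2.21. The call of H2-T27 held without each animal in turn. H2-K1 lost its call without 8 of the 12 animals, each of C57 females 1, 2 and 3, C57 males 1 and 2, CD1 female 3 and CD1 males 1 and 3 (adjusted p up to 0.0944). H2-Q7 lost its call without 6 of these, all except C57 male 1 and CD1 male 1 (up to 0.0844). H2-T24 had an adjusted p of 0.0508 and H2-D1 of 0.0635, and neither was called.

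Sexes differed in 4 of 10 genes in submandibular gland, where 17.2% of all genes were called, 9.21% higher and 8.03% lower in males. Males were higher in H2-T27 by 1.85 ± 0.33 on the log2 scale (edgeR adjusted p = 0.00201), in H2-Q7 by 1.25 ± 0.34 (0.0225) and in H2-Q4 by 0.85 ± 0.11 (1.70e-04), and lower in H2-T24 by -0.58 ± 0.17 (0.0311). In CD1, H2-T27 was at 46.5, 55.6 and 91.9 CPM in the 3 males and 5.68, 6.15 and 9.35 CPM in the 3 females, without overlap. In C57 males were at 0.232, 0.438 and 0.690 CPM and females at 0.0690, 0.360 and 0.444 CPM. H2-T24 ran the other way in CD1, at 13.8, 14.3 and 15.4 CPM in males and 25.6, 35.3 and 35.6 CPM in females. Leaving out 1 library at a time, the call of H2-T24 held in 4 of 12 fits (adjusted p up to 0.0818) and that of H2-Q7 in 6 of 12 (up to 0.0594). A single fit to all 60 libraries called neither (edgeR adjusted p = 0.159 and 0.215).
In liver H2-T27 alone was called (background 2.64%, 1.31% higher in males), higher in males by 1.12 ± 0.19 (edgeR adjusted p = 0.00683), with CD1 males at 50.5, 57.03 and 63.5 CPM and CD1 females at 19.9, 21.6 and 22.3 CPM. The fit to all 60 libraries did not call it (edgeR adjusted p = 0.260). By edgeR none of the 10 genes was called for sex in parotid, sublingual gland or pancreas, where 0.0319%, 0.0691% and 0.0307% of all genes were, and 5, 1 and 5 of them had an unadjusted p under 0.05. DESeq2 called 1 in parotid. Without the pancreas library of CD1 female 1 edgeR called 6 in pancreas for sex and 6 for the interaction of sex with strain. The CD1 females of that fit were only females 2 and 3, which stood apart in Cpa1. By edgeR none was called for an interaction of strain and sex in any tissue, where 0% of all genes were in parotid and pancreas, 0.0226% in submandibular gland, 0.0106% in sublingual gland and 0.0479% in liver. Unadjusted p was under 0.05 for 2 in parotid, 5 in submandibular gland, 0 in sublingual gland, 5 in pancreas and 1 in liver, and DESeq2 called 1 in parotid, 2 in submandibular gland and 2 in pancreas. The interaction of H2-Q4 in submandibular gland was 1.45 ± 0.22 (edgeR adjusted p = 0.0583), and DESeq2 called it and H2-T27 there.

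In parotid and pancreas some class I genes were high or low in the same libraries as markers of white blood cells. In parotid H2-Q4 was at 33.1 CPM in CD1 female 1 and at 104 to 158 CPM in the other 5 CD1 libraries. In C57 it was at 128 CPM in male 1 and 96.9 CPM in male 3 and at 26.9 to 36.9 CPM in the rest. The marker sums ranked the same libraries low and high, at 57.4 CPM in CD1 female 1 and 896 and 549 CPM in C57 males 1 and 3. In pancreas, CD1 females 2 and 3 held H2-Q4 at 123 and 151 CPM and H2-T23 at 324 and 153 CPM, against at most 28.2 and 35.3 CPM in the other 10. In the same 2 libraries the lymphocyte and myeloid markers summed to 237 and 1401 CPM and the interferon response genes to 1373 and 449 CPM (at most 107 CPM in the other 10). The plasma cell markers (Jchain, Mzb1, Igha, Tnfrsf17 and Xbp1) summed to 3043 and 365 CPM, against 513 to 819 CPM in the other 10. Of these 2 libraries, H2-T23 was higher in the one with the higher interferon and plasma cell sums. H2-Q4 was higher in the one with the higher lymphocyte and myeloid sum. This orders 2 libraries only. The part of these markers in the strain differences was not tested. The log2 fold change of H2-T23 in pancreas was 1.70 ± 0.46 (edgeR adjusted p = 0.0597) and 0.19 without those 2 libraries (adjusted p = 0.522). That of H2-Q4 was 1.09 ± 0.43 (edgeR adjusted p = 0.152) and -0.34 without them (adjusted p = 0.275). Lymph node stroma markers (5 genes) summed to 1474 CPM in the parotid library of CD1 female 2 and to 941 CPM in the pancreas library of CD1 female 3, with all other libraries of these tissues at 452 CPM or less.

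**Figure D5:**
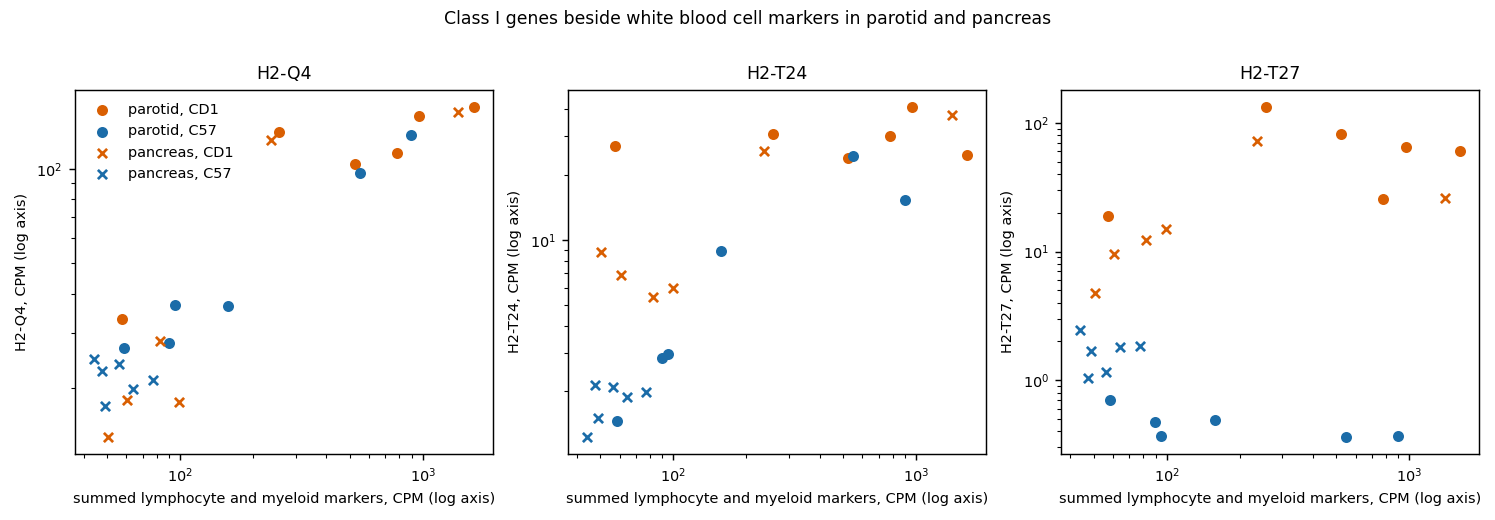
Level of H2-Q4, H2-T24 and H2-T27 (vertical log axes, CPM) against the summed 17 lymphocyte and myeloid markers (horizontal log axis, CPM) in parotid (circles) and pancreas (crosses), CD1 in orange and C57 in blue. H2-Q4 is high in the libraries with high marker sums in both strains, and H2-T27 is below 1 CPM in every C57 parotid library whatever the sum.

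Genes most like the members over the 30 CD1 libraries, after centring each tissue, came from 11370 genes with a mean of at least 1 CPM in every tissue. Psmb8, an immunoproteasome subunit, was the most like H2-Q4 (Pearson r = 0.965), followed by Irf8 (0.942), a transcription factor of myeloid and B cells. B2m, the light chain, was the most like H2-T27 (0.882), H2-T22 (0.862) and H2-K1 (0.759). Coro1b (0.906) and Tap1 (0.898) were the most like H2-T23. H2-D1 had Pop4 (0.736) and Gm14305 (0.736), and H2-Q6 had Uba6 (0.751). Among the members the highest were H2-Q6 with H2-Q7 (0.869), H2-Q4 with H2-T23 (0.822) and H2-T22 with H2-T27 (0.806). These libraries share 6 animals, so the values describe them and carry no test. The 2 pancreas libraries and the parotid libraries above are among them.

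Of the 15 genes that load and supply class I molecules, edgeR called 0 for strain in parotid (background 2.02%) and 0 in sublingual gland (14.8%). In CD1, 2 were higher in submandibular gland (4.75%) and 3 in pancreas (3.74%). In liver 1 was higher and 2 were lower (14.1%). An unadjusted edgeR p was under 0.05 for 6 of the 15 in parotid, 4 in submandibular gland, 1 in sublingual gland, 12 in pancreas and 7 in liver. B2m was at a mean of 1321 CPM in CD1 liver and 1298 in C57 liver (log2 fold change 0.02 ± 0.11, edgeR adjusted p = 0.921). It was called higher in CD1 pancreas (1.72 ± 0.41, adjusted p = 0.0452), where CD1 females 2 and 3 stand apart. In submandibular gland the coactivator Nlrc5 was higher in CD1 (20.5 against 5.48 CPM, 1.47 ± 0.25) and so was Psmb8 (23.8 against 10.9 CPM, 0.87 ± 0.20). In liver Tap1 was lower in CD1 (-0.72 ± 0.14, edgeR adjusted p = 0.00396) and Tap2, its partner in the transporter, higher (0.68 ± 0.08, adjusted p = 1.93e-04), both without overlap. Psmb9 was called in no tissue and Tapbp, which bridges TAP and the heavy chain, in none.

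Other class I genes of the H2 complex were called in 4 of 13 tested genes in parotid, 4 of 11 in submandibular gland, 6 of 11 in sublingual gland, 2 of 7 in pancreas and 7 of 10 in liver. Over all genes tested the share called was 2.02% in parotid, 4.75% in submandibular gland, 14.8% in sublingual gland, 3.74% in pancreas and 14.1% in liver, and the counts of every list in this paragraph stand beside these shares. H2-Bl was higher in CD1 in all 5 tissues (15.6 against 0.831 CPM in liver, log2 fold change 4.05 ± 0.40). H2-Q1 was higher in 4 tissues and H2-Q5 lower in 4, with 7.33 CPM in C57 parotid against 0.0947 CPM in CD1 (-5.68 ± 0.44, edgeR adjusted p = 8.58e-05). Class II genes, which present peptides to helper T cells, were lower in CD1 for 4 of 11 tested in submandibular gland and 5 of 10 in sublingual gland (1 of the 10, H2-DMb2, was higher there by 1.82 ± 0.31), with H2-Ab1 at -0.98 ± 0.21 and -1.22 ± 0.17. They gave 0 calls of 12 in parotid, where 4 had an unadjusted edgeR p under 0.05, 2 higher of 11 in pancreas and 2 lower of 11 in liver. Cd74, the invariant chain, was lower in sublingual gland (-0.66 ± 0.15) and higher in pancreas (2.32 ± 0.56). All pancreas results in this paragraph include the libraries of CD1 females 2 and 3, which stood apart in Cpa1 and in lymphocyte and myeloid markers. The part of these libraries in the pancreas calls of these genes was not tested. H2-Ea was at a mean of 1.38 CPM in CD1 parotid and 0.107 CPM in C57 (2.75 ± 0.94, edgeR adjusted p = 0.141) and was not tested elsewhere. In liver 7 of 14 interferon response genes were lower in CD1 and none higher, among them Ifit3 (-1.73 ± 0.16) and Ifit1 (-1.46 ± 0.14), which are induced by interferon, and Usp18 (-1.37 ± 0.17), which restrains its receptor. In parotid Ifit3 alone of the 14 was lower, and in the 3 other tissues edgeR called none, with an unadjusted p under 0.05 for 3 in submandibular gland, 1 in sublingual gland and 9 in pancreas. The 17 lymphocyte and myeloid markers summed to 46.0 to 94.0 CPM in CD1 liver and 55.6 to 120 CPM in C57 liver, and to 37.2 to 107 CPM and 50.2 to 136 CPM in sublingual gland. Their part in the class II and interferon differences was not tested. Class I-like genes outside the H2 complex gave 1 call of 9 in parotid, where Azgp1 was lower in CD1 (-2.66 ± 0.39), 1 of 8 in submandibular gland, 2 of 9 in sublingual gland, 1 of 8 in pancreas and 3 of 8 in liver.

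Non-class I genes between 33 and 38 megabases of chromosome 17, where the H2 complex lies, were called for strain in 4.62% of 173 tested in parotid, against 1.96% of other genes. The shares were 12.3% against 4.64% in submandibular gland, 19.0% against 14.8% in sublingual gland, 6.76% against 3.70% in pancreas and 17.7% against 14.0% in liver. These are counts without a test.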

How the data were processed

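Gene counts of 60 poly(A) libraries were deposited by the authors as 1 table of raw count values, with no normalization. Per the submitters' processing notes, reads were trimmed with Trim Galore, aligned with HISAT2 and counted with featureCounts on GRCm39, and the settings for strand and for reads with several positions are not given in the sources used here. Small counts were even 1.68 times as often as odd, as when both reads of a pair are counted. No 2 libraries of a group agreed within sampling noise.

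Members and gene lists were chosen with earlier results of these data known. Within each tissue, genes passing filterByExpr were fitted in edgeR 4.0.16 (R 4.3.3) with TMM scaling and 4 means of strain and sex, the quasi-likelihood test and Benjamini-Hochberg adjustment over all genes tested. SE is the fold change divided by the root of F. Tissues were compared over 60 libraries with the animal as a block. CPM used totals scaled by TMM over the 60 libraries. Scripts were tested on simulated data. Genes named beside the members are 10 fixed genes of the assembly and class II lists, at most 3 of each other list by smallest p in a tissue, and the 2 most like each member with an SD ratio of at least 2. Fits without 1 animal kept the genes and dispersion trend of the full 60-library fit. Alternatives were relative log expression scaling, no filter, DESeq2 1.42.0, a replicate block, all 60 libraries in 1 fit, and leaving out libraries.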

Additional observations from a re-analysis of the deposited data

Results flagged for a closer look

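Of 100 groups of 6 libraries (10 genes, 5 tissues and 2 strains), 11 held a library whose gap to its nearest neighbour was over 0.625 of the group's range, and chance gives about 1 in 20 groups. H2-D1 of CD1 male 1 was such a library in parotid (57.2 CPM), sublingual gland (24.8 CPM) and liver (55.3 CPM), each time the lowest. H2-Q4 was low in the parotid library of CD1 female 1 (33.1 CPM) and high in the sublingual library of CD1 male 2 (53.7 CPM). In the pancreas library of CD1 female 3, which also held little Cpa1, H2-Q6 (3.23 CPM) and H2-Q7 (3.85 CPM) were high. H2-Q7 was high in the liver of C57 male 1 (18.9 CPM, next 6.51 CPM). H2-Q10 was low in the parotid of CD1 male 3 (4.38 CPM), where Alb was low too (84.8 CPM). H2-T22 was low in the sublingual library of C57 female 3 (38.6 CPM), and H2-T24 was high in that of C57 male 2 (7.75 CPM), the library with high Egf. Strain differences that were unequal between tissues by the F test were those of H2-K1 (edgeR adjusted p = 0.0277), H2-Q7 (0.0246) and H2-T27 (3.38e-04).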

How the results depend on the processing

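No called value changed sign. The calls of H2-T24 and H2-T27 for strain held under every alternative run in all 5 tissues. DESeq2 called 6 genes for strain in parotid in place of 3, 1 in place of 0 for sex and for the interaction there, 2 in place of 0 for the interaction in submandibular gland and 2 in place of 0 in pancreas. Without a filter 2 were called for the interaction in submandibular gland. A single fit to all 60 libraries called 5 for strain in parotid, 1 for sex and 1 for the interaction there, 5 for strain, 2 for sex and 4 for the interaction in pancreas, and 0 for sex in liver. Strain differences unequal between tissues numbered 3, and 5 without the animal block or with the edgeR 4 dispersion estimate, which was added after seeing the data. The cause of these changes was not tested.

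Leaving out 1 library at a time gave 3 to 4 strain calls in parotid, 3 to 4 in submandibular gland, 5 to 5 in sublingual gland, 2 to 7 in pancreas (7 without CD1 female 1) and 4 to 5 in liver. Sex calls ran from 0 to 0 in parotid, 2 to 5 in submandibular gland, 0 to 0 in sublingual gland, 0 to 6 in pancreas (6 without CD1 female 1) and 1 to 2 in liver (2 without CD1 female 2), and interaction calls from 0 to 6 in pancreas (6 without CD1 female 1) and 0 to 0 elsewhere. The pancreas fits without CD1 female 1 kept only females 2 and 3, which stood apart in Cpa1, as CD1 females. The 2 sex calls in submandibular gland came without C57 male 1 or CD1 male 2. Calls of unequal strain differences ran from 1 (without C57 female 1, 2 or 3, C57 male 2 or CD1 female 3) to 6 (without CD1 female 1), tissue differences from 44 to 48 and genes past the SD ratio from 4 to 7. Libraries of a tissue with the same number are of different animals. Their deviations correlated with r from -0.711 to 0.456 over all pairs of groups, and from -0.336 to 0.456 between the strains within a sex, where 10 of 30 pairs were over 0.1. In parotid 5 of 6 of these were. Since not every pair was, the numbers were not taken as pairing the animals. With the replicate block the strain calls were 3 in parotid, 3 in submandibular gland, where H2-K1 was lost (edgeR adjusted p = 0.0684), 5, 2 and 5 in the other tissues, and sex calls stayed at 0, 4, 0, 0 and 1. Without pancreas libraries of CD1 females 2 and 3, 3 genes were called for strain. Counts near 0 limit H2-Q6 and H2-Q7 and, in C57, H2-T27.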
